A study of Mus musculus with 6 samples.

Results

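The genes described here are the 2 corticosteroid receptors, *Nr3c1* (glucocorticoid receptor) and *Nr3c2* (mineralocorticoid receptor), and 8 genes known as targets of these receptors, namely *Fkbp5*, *Tsc22d3*, *Zbtb16*, *Sgk1*, *Pdk4*, *Nfkbia*, *Errfi1* and *Klf9*. They are 10 of 32285 genes in the gene expression rows of 3 single-cell RNA libraries. The list was selected on measured values, since the levels of these genes in the same cells were already known when it was drawn up. The libraries were made from amygdala of young adult mice, labelled as wild-type male C57BL/6N, dissociated in the presence of transcription and translation inhibitors and sorted with the astrocyte surface antibody ACSA2. Cells of each mouse carried a hashtag antibody, and the hashtag table listed 16 mice in 4 groups of 4.

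All mice had explored the conditioning chamber on the days before. NoFC mice were then placed in it without shock, FC mice received foot shocks in it, NoFR mice were conditioned and stayed in the home cage with no recall on the next day, and FR mice were conditioned and returned to the chamber for recall on the next day. The labels place tissue collection at 90 min after the start of the behaviour, and they give no time of day for any mouse. NoFR mice had no recall session before collection, and the paper places them about a day after conditioning. Library 1 held 2 mice of every group, library 2 held no NoFR mouse and library 3 held no FC mouse.

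The astrocyte and pericyte classes were cut from unique molecular identifiers (UMIs), each of which counts 1 captured RNA molecule. Astrocytes had at least 20 UMIs of *Slc1a2* and *Slc1a3* together and at most 3 of *Vtn* and *Rgs5*, and pericytes had at least 10 UMIs of *Vtn* and *Rgs5* and at most 5 of the astrocyte pair. This gave 8757 astrocytes with a median of 9891 UMIs and 2260 pericytes with a median of 5006 UMIs among 13546 barcodes. The other astrocyte and pericyte markers were each higher in the class they are listed for. The antigen of the ACSA2 sort, *Atp1b2*, differed little. It was at 814 CPM (UMIs of a gene relative to all gene UMIs of the summed cells) in astrocytes and 676 CPM in pericytes. Summed endothelial markers (*Cldn5*, *Pecam1*, *Flt1*, *Ly6c1* and *Slco1a4*) reached 168 CPM in pericytes and 3.32 CPM in astrocytes. *Flt1* gave 131 CPM of the pericyte sum, while *Pecam1* was at 1.37 CPM in pericytes and 1.43 CPM in astrocytes. Summed smooth muscle markers (*Acta2*, *Tagln*, *Myh11* and *Cnn1*) reached 189 CPM and 0.569 CPM. Both sums moved with the pericyte class, and their part in the class differences below was not tested. The libraries shared between 3 and 8 barcodes in pairs.

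Corticosterone, the main glucocorticoid of mice, enters cells and binds both receptors, which then move to the nucleus and switch target genes on or off. The mineralocorticoid receptor binds the hormone more tightly and is occupied at low hormone levels, whereas the glucocorticoid receptor is occupied mainly at the daily peak and after stress. Target genes include inhibitors of the receptor itself, regulators of inflammation and of fuel use, and transcription factors. Pericytes wrap the capillaries of the brain, and astrocytes contact the same vessels with their endfeet.

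Glucocorticoid receptor dimers bind a palindrome, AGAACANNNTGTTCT, where N is any base. Promoters are shown for 3 members that differed between groups, *Fkbp5*, *Klf9* and *Tsc22d3*, and for *Sgk1*, which did not pass the count filter for the group comparison and is shown because its window holds the palindrome. RefSeq windows of 300 bases on GRCm38.p6, reaching from 250 bases before a start site to 50 after it, were found for 8 of the 10 members in 16 windows, and *Zbtb16* was not among them. Capitals mark the palindrome or, where it was absent, one of its arms, AGAACA or TGTTCT, on either strand. A further arm near the start of the *Sgk1* window is left in lower case. The *Fkbp5* window lies at chr17:28486100-28486399 on the minus strand, that of *Klf9* at chr19:23140976-23141275 on the plus strand, the *Tsc22d3* window with an arm at chrX:140600473-140600772 on the minus strand, and the *Sgk1* window with the palindrome at chr10:21993640-21993939 on the plus strand.
Fkbp5: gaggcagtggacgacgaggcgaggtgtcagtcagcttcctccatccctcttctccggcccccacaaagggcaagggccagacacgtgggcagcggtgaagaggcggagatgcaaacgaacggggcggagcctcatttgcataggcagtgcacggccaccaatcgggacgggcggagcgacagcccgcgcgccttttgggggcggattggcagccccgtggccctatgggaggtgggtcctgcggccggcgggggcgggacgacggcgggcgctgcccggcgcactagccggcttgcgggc
Klf9: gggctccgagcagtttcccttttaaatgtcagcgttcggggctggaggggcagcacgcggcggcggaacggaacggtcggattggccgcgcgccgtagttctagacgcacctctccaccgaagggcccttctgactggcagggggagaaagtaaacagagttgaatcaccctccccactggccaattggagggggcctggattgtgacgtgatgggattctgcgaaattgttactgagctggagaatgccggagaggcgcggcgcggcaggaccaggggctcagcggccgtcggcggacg
Tsc22d3: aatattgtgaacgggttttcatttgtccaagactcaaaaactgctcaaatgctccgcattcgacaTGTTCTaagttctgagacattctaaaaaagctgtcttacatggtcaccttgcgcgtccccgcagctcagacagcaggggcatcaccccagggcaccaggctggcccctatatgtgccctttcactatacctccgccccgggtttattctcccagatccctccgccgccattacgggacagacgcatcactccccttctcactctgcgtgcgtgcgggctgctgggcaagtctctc
Sgk1: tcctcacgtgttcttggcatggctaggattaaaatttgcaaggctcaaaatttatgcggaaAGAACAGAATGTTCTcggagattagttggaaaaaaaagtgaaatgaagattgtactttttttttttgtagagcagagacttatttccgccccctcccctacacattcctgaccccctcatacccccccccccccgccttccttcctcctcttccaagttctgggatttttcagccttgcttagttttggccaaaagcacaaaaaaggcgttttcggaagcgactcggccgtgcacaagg

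The exact palindrome occurred in 3 of 32851 windows, 0.00913% of all, and 1 of the 3 was the *Sgk1* window above, where it began 189 bases before the start site. An arm occurred in 19% of all windows and in 4 of the 16 member windows, 3 of *Sgk1* and 1 of *Tsc22d3*. No match says only that these letters are absent from these 300 bases.

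In the class comparison, the glucocorticoid receptor was at like levels in both classes while the mineralocorticoid receptor was 2.41 times higher in astrocytes. *Nr3c1* stood at 184, 188 and 196 CPM in the astrocytes of libraries 1, 2 and 3 and at 197, 186 and 205 CPM in the pericytes. These ranges overlapped. *Nr3c2* stood at 256, 265 and 262 CPM in astrocytes and at 100, 113 and 112 CPM in pericytes. Its 3 astrocyte values all lay above its 3 pericyte values. The classes were cut from the same cells, so these levels are a description and were not tested.

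Depth differed between the classes, so cells were also thinned to 2000 UMIs each. UMIs of both receptors then occurred together in 11.4% of astrocytes and 4.78% of pericytes. *Nr3c1* occurred alone in 18.8% of astrocytes and 25.5% of pericytes, and *Nr3c2* alone in 24.7% and 10.6%. Among cells with a receptor UMI at this depth, the mineralocorticoid receptor was thus the more often seen in astrocytes and the glucocorticoid receptor in pericytes.

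The target genes split between the classes. *Tsc22d3*, which encodes the leucine zipper protein GILZ that restrains inflammatory transcription factors, was higher in astrocytes (164, 186 and 167 CPM) than in pericytes (98.7, 89.3 and 83.2 CPM). *Pdk4*, a kinase that turns off pyruvate dehydrogenase and so spares glucose, was also higher in astrocytes (23.7, 26.6 and 27.1 CPM against 4.30, 2.54 and 3.76 CPM). These are mean ratios of 1.91 and 7.47. No library overlapped between the classes for either gene.

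Another 4 targets were higher in pericytes in every library. Over all 13997 measured genes, 6088 were higher in astrocytes and 7909 in pericytes. The share of all genes with the same direction in every library was not computed. These counts therefore describe single genes and not the targets as a set. *Sgk1*, a kinase that raises sodium transport, was at 0.576, 0.368 and 0.611 CPM in astrocytes, with 48 UMIs in 8757 cells, and at 11.5, 9.61 and 11.5 CPM in pericytes. *Nfkbia*, the inhibitor that holds NF-κB in the cytoplasm, was 3.08 times higher in pericytes, between 138 and 147 CPM against 45.3 to 48.1 CPM. *Klf9*, a transcription factor that damps glucocorticoid responses, was 1.64 times higher, between 415 and 434 CPM against 254 to 258 CPM. *Errfi1*, a feedback inhibitor of epidermal growth factor receptors, was 2.09 times higher, but its pericyte level ran from 16.8 to 33.8 CPM over the libraries. Behind the highest value, in library 3, 22 of 126 UMIs came from 1 cell.

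*Fkbp5*, the co-chaperone that lowers the receptor's affinity for hormone, and *Zbtb16*, the transcriptional repressor PLZF, differed little between classes. *Fkbp5* was at 29.1 to 37.1 CPM in astrocytes and 24.7 to 29.7 CPM in pericytes. *Zbtb16* was at 94.9 to 131 CPM in astrocytes and 77.4 to 119 CPM in pericytes. TMM scaling moved every astrocyte to pericyte ratio up by 0.28 on the log2 scale, which turned the *Nr3c1* log2 ratio from −0.05 to 0.23 and left the other 9 on their side.

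**Figure D1:**
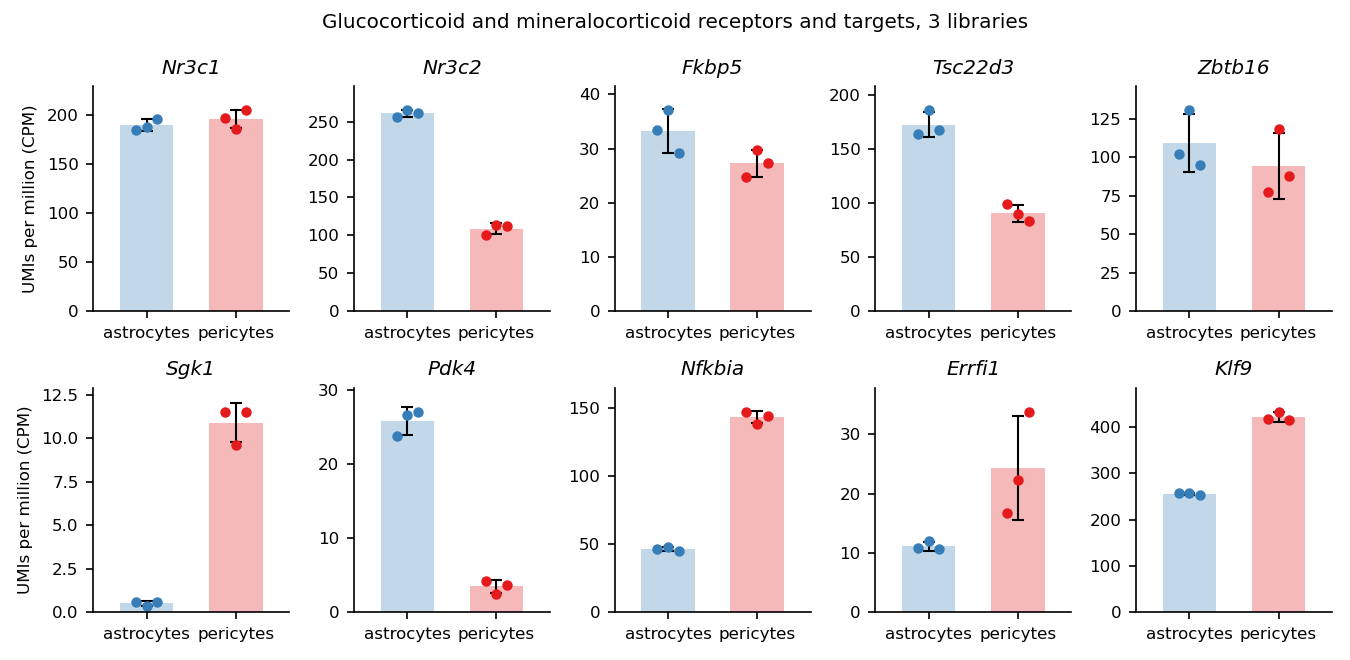
Level of each of the 10 genes in CPM (vertical axes, each from 0) in astrocytes (blue) and pericytes (red). Points are the 3 libraries, bars their mean and error bars the SD. *Nr3c2*, *Tsc22d3* and *Pdk4* were higher in astrocytes and *Sgk1*, *Nfkbia*, *Errfi1* and *Klf9* in pericytes, while *Nr3c1* stood between 184 and 205 CPM in both.

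At the cuts themselves, astrocytes with 20 to 29 gate UMIs had 145 CPM of *Nr3c1* in 411 cells, and barcodes just outside, with 10 to 19, had 104 CPM in 919 cells. Pericytes with 10 to 14 gate UMIs had 156 CPM in 34 cells and barcodes just outside, with 5 to 9, had 197 CPM in 54 cells. *Zbtb16* was at 312 CPM inside and 371 CPM outside the pericyte cut, on 26 and 47 UMIs, and *Nr3c2* at 204 and 260 CPM, on 17 and 33 UMIs, all above the pericyte means of 94.6 and 109 CPM. At the astrocyte cut *Zbtb16* was at 154 CPM inside and 218 CPM outside, and *Nr3c2* at 213 and 165 CPM.

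Genes of the receptor's surroundings were described from lists drawn up for this comparison. Of 21 measured genes of the receptor machinery (chaperones, hormone-converting enzymes and co-regulators), 4 were higher in astrocytes and 17 in pericytes, with a median log2 ratio of −0.67. Over all 13997 measured genes, 43.5% were higher in astrocytes, with a median of −0.18. *Hsd11b1*, the enzyme that regenerates active hormone inside cells, was at 75.4 CPM in astrocytes and 1.03 CPM in pericytes, with 12 UMIs in all pericytes. *H6pd*, which supplies that enzyme's cofactor, went the other way, at 2.19 CPM in astrocytes and 48.9 CPM in pericytes.

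*Srebf1* and *Ncoa1*, a lipid-synthesis factor and a co-activator, were 5.26 and 3.26 times higher in astrocytes. *Dnajb1* and *Ncoa3*, a co-chaperone and a co-activator, were 3.73 and 3.598 times higher in pericytes. Of 34 other measured glucocorticoid targets, 17 were higher in each class, with a median log2 ratio of 0.10. *Mfsd2a*, a lipid transporter, and *Fam107a*, an actin-binding stress gene, were 109 and 94.7 times higher in astrocytes. *Plin4*, a lipid droplet protein, had 172 UMIs in astrocytes and 0 in pericytes. *Tgm2*, a transglutaminase, *Il1r1*, the interleukin-1 receptor, and *Cebpd*, a transcription factor, were 39.4, 13.8 and 10.3 times higher in pericytes. Immediate early genes, listed as a measure of activity or handling, were higher in pericytes for 10 of 12, with a median log2 ratio of −4.46.

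The comparison of the 4 groups asked whether conditioning, its recall or the day without recall went with another level of these genes. A cell entered it when its top hashtag had at least 10 UMIs and at least 3 times the next hashtag and belonged to a listed mouse. This kept 1024 pericytes, between 36 and 110 per mouse in all 16 mice, but 335 astrocytes, whose top hashtag had a median of 4 UMIs over all astrocytes against 18 in pericytes. Mice with fewer than 5 cells of a class were left out, which left 11 mice for astrocytes. UMIs were summed per mouse and tested by edgeR's quasi-likelihood test with the library as a covariate, and p-values were adjusted by Benjamini-Hochberg over all genes tested. In pericytes 6543 genes were tested and the sums ran from 187654 to 629179 UMIs. In astrocytes 3390 genes were tested and the sums ran from 37429 to 1886044 UMIs.

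In pericytes of NoFR mice, 4 target genes were lower than in NoFC mice, and neither receptor passed the test. *Zbtb16* was 11.05 times lower and was the gene with the smallest p of all 6543. *Fkbp5* was 4.36 times lower, *Tsc22d3* 2.33 times lower and *Klf9* 1.90 times lower. Of the members, 7 were tested and 4 passed at an adjusted p of 0.05, all lower, against 1.1% of all genes tested, and the same 4 were the members under 0.05 unadjusted, against 8.77% of all genes. DESeq2 called 3 of the 7 members and 39 genes in all. The median log2 fold change of the 7 was −0.93, and that of all genes tested was 0.00. The members were listed with earlier results of these data known. Their shares and medians, here and in the pairs below, are thus a description and no test of the targets as a set. *Sgk1*, *Pdk4* and *Errfi1* did not pass the filter on low counts.

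*Zbtb16* (ENSMUSG00000066687) spans chromosome 9 from 48654297 to 48836222 (GRCm38, GENCODE vM21) and is read from the minus strand. Its pericyte level, in TMM-scaled CPM per mouse, was 78.9, 101, 145 and 190 in NoFC mice, 116, 136, 157 and 209 in FC mice, 11.2, 11.2, 12.4 and 15.6 in NoFR mice, and 62.0, 71.3, 93.9 and 104 in FR mice. All 4 NoFR mice lay below all 12 others. The share of all genes tested that separate in this way was not computed, here or for the members below. The NoFR levels rested on 14 UMIs over 230 cells, from 2 to 5 per mouse, and those of the other groups on 203, 206 and 82 UMIs in the order NoFC, FC and FR. The log2 fold change was −3.47 ± 0.33 (SE) for NoFR over NoFC (adjusted p = 9.7e-14). It was −3.78 ± 0.35 for NoFR over FC (adjusted p = 1.6e-14) and 2.81 ± 0.37 for FR over NoFR (adjusted p = 1.6e-07). These comparisons share the NoFR mice and are not independent.

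The share of pericytes with a *Zbtb16* UMI moved in the same order. It was 5.67 ± 1.91% (SD, n = 4 mice) in NoFR against 38.1 ± 11.1% in NoFC, 46.7 ± 6.75% in FC and 28.8 ± 7.24% in FR. At a fixed depth of 2000 UMIs per cell, the share was 2.31 ± 2.73% in NoFR, 20.2 ± 5.27% in NoFC, 24.9 ± 9.78% in FC and 12.4 ± 3.01% in FR. *Zbtb16* was detected in every class, the barcodes outside both gates included, so no class gave the share that free RNA alone would produce.

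*Klf9* (ENSMUSG00000033863) lies on the plus strand of chromosome 19, from 23141226 to 23168134. It was counted with the most UMIs of the members in pericytes, 2460 over the 16 mice. Its level was 493, 510, 514 and 780 CPM in NoFC mice, 455, 495, 519 and 586 CPM in FC mice, 269, 316, 324 and 360 CPM in NoFR mice, and 490, 510, 545 and 577 CPM in FR mice. NoFR mice were again below all others without overlap. The log2 fold change was −0.93 ± 0.13 for NoFR over NoFC (adjusted p = 2.4e-07), −0.84 ± 0.15 for NoFR over FC (adjusted p = 8.0e-05) and 0.83 ± 0.14 for FR over NoFR (adjusted p = 9.9e-05).

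*Fkbp5* (ENSMUSG00000024222) lies on the minus strand of chromosome 17, from 28399094 to 28517527. Its level was 27.0, 31.0, 52.5 and 67.3 CPM in NoFC mice, 30.1, 30.2, 44.9 and 79.7 CPM in FC mice, 3.73, 4.97, 15.6 and 28.1 CPM in NoFR mice, and 17.8, 22.5, 33.1 and 48.6 CPM in FR mice. In NoFR, 3 of the 4 mice lay below every mouse of the other groups, and the highest lay above 3 of those 12. The counts were low, with 12 UMIs in all NoFR mice and from 1 to 5 per mouse. The log2 fold change was −2.12 ± 0.49 for NoFR over NoFC (adjusted p = 0.0066) and −2.47 ± 0.53 for NoFR over FC (adjusted p = 0.0044), and for FR over NoFR it was 1.65 ± 0.53 without passing (adjusted p = 0.43). The first call was lost without NoFR 3 (−1.58, adjusted p = 0.16), NoFC 4 (−1.88, adjusted p = 0.23) or NoFR 1 (−1.95, adjusted p = 0.058) and in DESeq2 (−2.07, adjusted p = 0.074). The call against FC was lost without FC 3, NoFC 4 or NoFR 3 (adjusted p = 0.051 to 0.081) and in DESeq2 (adjusted p = 0.098).

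*Tsc22d3* (ENSMUSG00000031431) lies on the minus strand of chromosome X, from 140539528 to 140600659. Its level was 93.8, 135, 157 and 162 CPM in NoFC mice, 74.8, 101, 112 and 233 CPM in FC mice, 54.5, 54.7, 61.9 and 85.7 CPM in NoFR mice, and 57.0, 78.9, 87.5 and 104 CPM in FR mice. NoFR mice did not overlap with NoFC mice and overlapped with FC and FR mice. The log2 fold change was −1.22 ± 0.28 for NoFR over NoFC (adjusted p = 0.018), and −1.14 ± 0.31 for NoFR over FC without passing (adjusted p = 0.11). The latter passed with looser hashtag calls (adjusted p = 0.0029), with HTODemux calls (adjusted p = 0.025), without the count filter or the library term, and without FC 2, FC 4, NoFC 2 or NoFC 3 (adjusted p = 0.0043 to 0.048). Without FC 1 it shrank to −0.67 (adjusted p = 0.54). Between FR and NoFC it was −0.81 ± 0.26 (adjusted p = 0.42). Leaving out NoFC 4 gave −1.07 for NoFR over NoFC (adjusted p = 0.27), and leaving out FC 3, NoFR 2, NoFR 3 or NoFR 4 also ended the call, with adjusted p from 0.051 to 0.13.

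**Figure D2:**
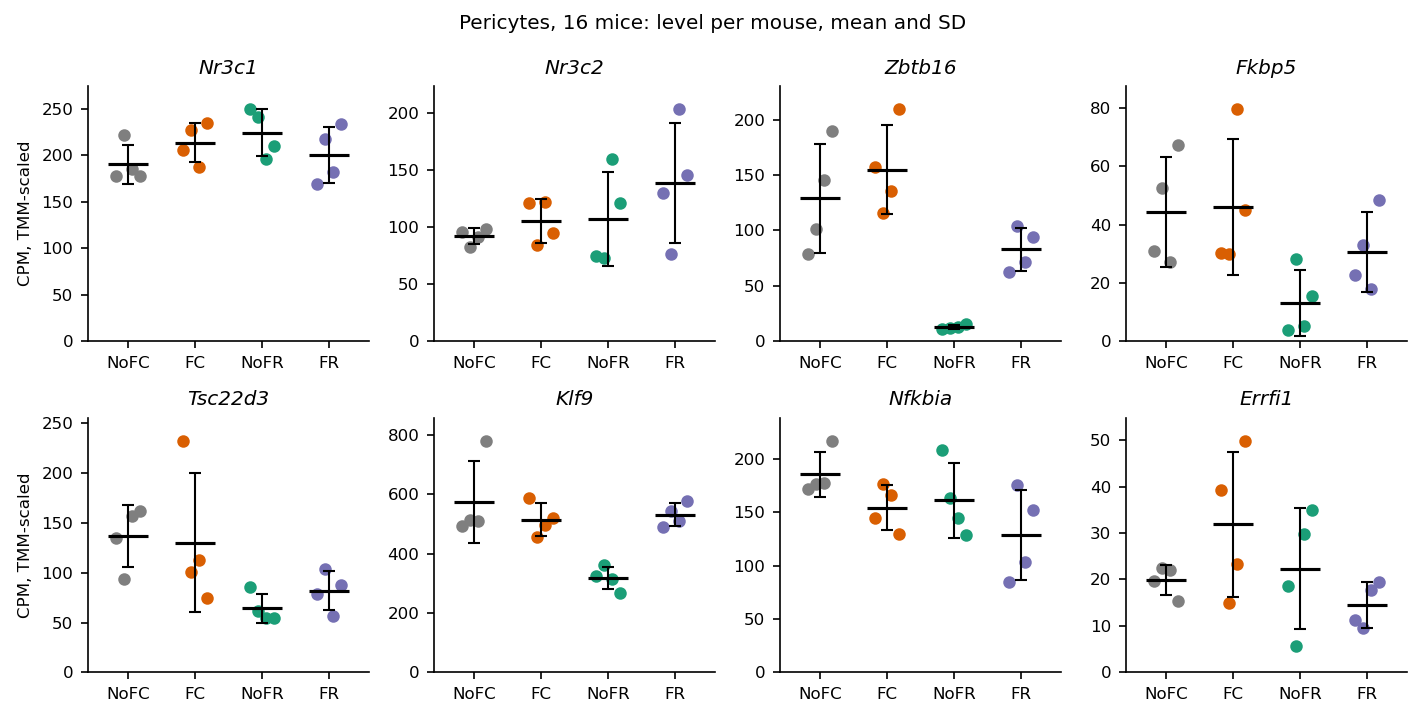
Level of 8 members in pericytes, in TMM-scaled CPM (vertical axes, each from 0). Each point is 1 mouse, the line is the group mean and the error bars are the SD over 4 mice. NoFR mice lay below all others for *Zbtb16* (11.2 to 15.6 CPM) and *Klf9* (269 to 360 CPM), while *Nr3c1* overlapped in all groups. The share of all genes that separate in this way was not computed.

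Neither receptor was called in any pair. *Nr3c1* stood between 169 and 250 CPM over the 16 mice, with 196 to 250 CPM in NoFR and 169 to 234 CPM in the other groups, and no pair of groups had an unadjusted p under 0.05. *Nr3c2* stood between 73.1 and 203 CPM. For *Nr3c2* only FR over NoFC was under 0.05 unadjusted, at 0.61 ± 0.20 (adjusted p = 0.42). Its levels were 82.6, 91.2, 95.8 and 97.8 CPM in NoFC mice and 75.8, 130, 146 and 203 CPM in FR mice, and the groups overlapped. A p above the threshold does not show that receptor levels were equal.

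Against FC mice, NoFR pericytes had 3 of 7 members called, all lower, namely *Zbtb16*, *Fkbp5* and *Klf9*, where 0.504% of all genes were called. *Tsc22d3* was the fourth member under 0.05 unadjusted, against 7.66% of all genes. DESeq2 called 2 of the 7 members and 17 genes in all. In FR over NoFR, *Zbtb16* and *Klf9* were called, both higher in FR, against 0.138% of all genes. In that pair 3 members were under 0.05 unadjusted, against 6.36% of genes. DESeq2 called 2 of the 7 members there and 4 genes in all. The median log2 fold change of the members was −0.84 and 0.41 in these comparisons, against 0.01 and 0.00 over all genes.

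No member was called among the remaining pairs. In FC over NoFC, 0 of 7 members passed by edgeR and by DESeq2 and 0 were under 0.05 unadjusted, against 0% and 4.54% of all genes. In FR over NoFC, 0 members passed by either tool and 4 were under 0.05 unadjusted, against 0.0459% and 6.5% of all genes. In FR over FC, 0 passed by either tool and 3 were under 0.05 unadjusted, against 0% and 4.8%.

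Against NoFC and FC mice, the targets under 0.05 unadjusted were all lower in FR mice. In FR over NoFC, *Zbtb16* was at −0.66 ± 0.21 (adjusted p = 0.41) and *Nfkbia* at −0.51 ± 0.18 (adjusted p = 0.45), beside *Tsc22d3* above. *Nfkbia* was at 172, 176, 177 and 217 CPM in NoFC mice and at 84.5, 103, 152 and 175 CPM in FR mice, and the groups overlapped. In FR over FC, *Zbtb16* was at −0.98 ± 0.22 (adjusted p = 0.11), *Tsc22d3* at −0.73 ± 0.28 (adjusted p = 0.85) and *Fkbp5* at −0.82 ± 0.40 (adjusted p = 0.96). Without the FR 2 mouse the *Zbtb16* value became −1.23 and passed (adjusted p = 0.014). None of the others passed under any alternative.

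**Figure D3:**
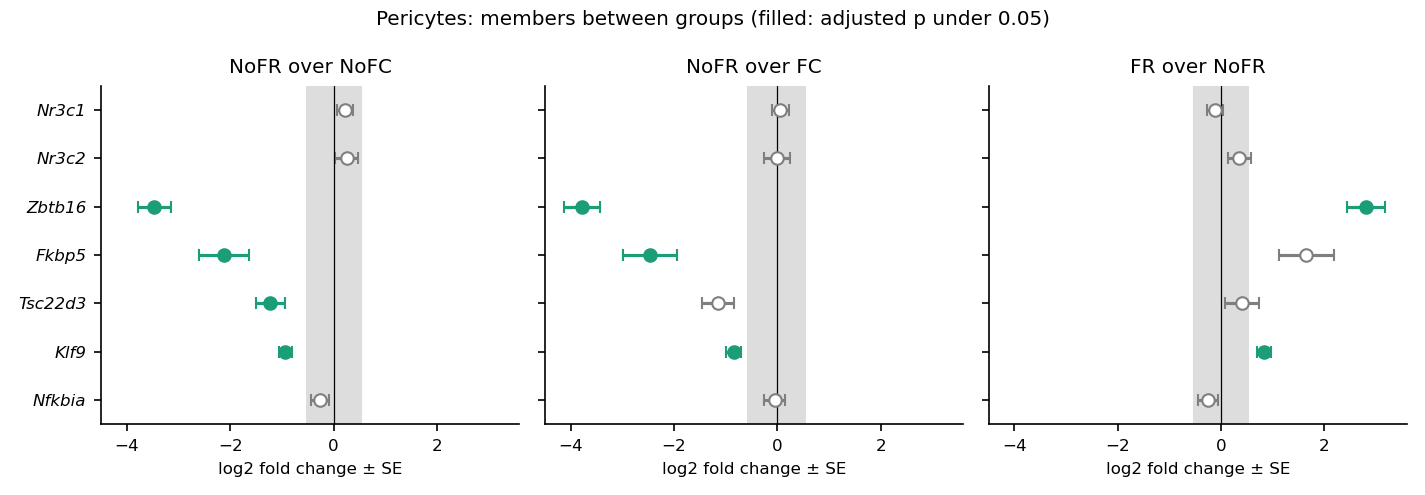
Log2 fold change in pericytes (horizontal axis, ± SE) of the 7 members tested, for the 3 comparisons with NoFR mice, with 4 mice per group. Filled points had an adjusted p under 0.05, and the grey band spans the middle 90% of all 6543 genes, from −0.51 to 0.54 in NoFR over NoFC. *Zbtb16* lay farthest from 0 in each panel, and both receptors lay inside the band.

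The differences were present within single libraries, except that *Fkbp5* and *Tsc22d3* overlapped between NoFR and FR mice of library 1. *Fkbp5* was there at 3.73 and 28.1 CPM in NoFR and at 22.5 and 33.1 CPM in FR mice. *Tsc22d3* was at 61.9 and 85.7 CPM against 78.9 and 104 CPM. For both, these NoFR mice lay below the NoFC and FC mice of that library. In library 1, *Zbtb16* was at 11.2 CPM in both NoFR mice, with 78.9 to 101 CPM in NoFC, 116 to 157 CPM in FC and 62.0 to 104 CPM in FR mice. In library 3 it was at 12.4 and 15.6 CPM in NoFR mice, 190 CPM in the NoFC and 93.9 CPM in the FR mouse. With HTODemux calls the NoFR mice of library 1 were at 42.7 and 28.2 CPM on 7 and 4 UMIs, against 58.2 CPM in the lowest other mouse, and those of library 3 at 8.24 and 11.4 CPM. NoFR mice still lay below all others, and the 3 comparisons with NoFR passed (adjusted p = 9.2e-05, 5.2e-05 and 0.036). *Klf9* was at 324 and 360 CPM in the NoFR mice of library 1 against 455 to 586 CPM in its other 6, and at 269 and 316 CPM in library 3 against 780 and 577 CPM. Fewer cells of a state and less RNA per cell cannot be told apart in these sums.

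Markers of other cells overlapped between NoFR and the other groups. The endothelial markers *Cldn5*, *Pecam1* and *Flt1* summed to 63.9 to 157 CPM in NoFR pericytes and 98.2 to 340 CPM in the other groups. The smooth muscle markers *Acta2*, *Tagln* and *Myh11* summed to 53.3 to 593 CPM against 36.6 to 764 CPM. Mitochondrial UMIs made up 1.75 to 1.86% in NoFR against 1.67 to 1.95%. A subset of 541 pericytes had no UMI of these endothelial markers and at most 1 UMI of these smooth muscle markers. In it, *Zbtb16* was called in the same 3 comparisons.

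Several of the lowest p-values in NoFR over NoFC belonged to clock-controlled genes. *Dbp*, *Tef*, *Nr1d1* and *Hlf*, transcription factors under clock control, were chosen after their values were seen. They had the 2nd, 3rd, 5th and 8th smallest p and were 4.38, 3.09, 2.23 and 2.02 times lower in NoFR (adjusted p = 1.5e-10, 7.1e-08, 1.6e-07 and 5.7e-07). *Zbtb16* was 1st and *Klf9* 7th in that order. In NoFR over FC, *Dbp*, *Tef*, *Nr1d1* and *Hlf* were also lower and passed (adjusted p = 4.8e-06, 0.00032, 0.00077 and 3.8e-05). In FR over NoFR, *Dbp*, *Nr1d1* and *Hlf* were higher in FR and passed (adjusted p = 0.00035, 0.034 and 0.011). *Tef* did not pass there (adjusted p = 0.29). In FR over NoFC only *Dbp* of these passed, lower in FR (−0.78 ± 0.16, adjusted p = 0.041). The part of clock phase in the differences of the members was not tested, and the recall session, the home cage and the hour of collection cannot be told apart here.

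The wider lists gave fewer calls. They were also drawn up with earlier results of these data known. Their shares and medians, here and below, are thus a description and no test of the lists. Of 18 other glucocorticoid targets tested in pericytes, 2 were lower in NoFR than in NoFC, *Glul*, glutamine synthetase (−0.95 ± 0.23, adjusted p = 0.014), and *Per1*, a clock gene that the receptor induces (−1.11 ± 0.29, adjusted p = 0.024), and 0 were higher. Unadjusted, 8 were lower and 1 higher, the last being *Il1r1* (0.69 ± 0.25, adjusted p = 0.24). Over all genes 1.1% were called and 8.77% were under 0.05 unadjusted. The median log2 fold change of the 18 was −0.42, against 0.00 over all genes. Against FC, *Angptl4*, an inhibitor of lipoprotein lipase (−2.50 ± 0.58, adjusted p = 0.013), and *Pnpla2*, a triglyceride lipase (−1.11 ± 0.27, adjusted p = 0.028), were lower, with 10 lower and 1 higher unadjusted and a median of −0.47. Over all genes 0.504% were called and 7.66% were under 0.05 unadjusted, with a median of 0.01.

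In FR over NoFR, none of the 18 passed and 2 were higher unadjusted, against 0.138% and 6.36% of all genes in either direction. *Txnip*, *Cebpd*, *Rhob*, *Ddit4* and *Arrdc3* reached an unadjusted p under 0.01 in NoFR over NoFC or NoFR over FC, each with a lower value in NoFR, and did not pass. *Arrdc3* and *Angptl4* were lower in FR than in FC mice by the same measure, at −1.45 ± 0.37 (adjusted p = 0.20) and −1.44 ± 0.47 (adjusted p = 0.61). *Txnip* was also lower in FR than in FC (−0.75 ± 0.25, adjusted p = 0.61) and than in NoFC mice (−0.64 ± 0.24, adjusted p = 0.53), as was *Arrdc3* against NoFC (−1.13 ± 0.36, adjusted p = 0.41), none of them passing.

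Among 20 tested genes of the receptor machinery, *Hspa8* and *Hsp90aa1*, chaperones that fold the receptor into its hormone-binding form, were lower in NoFR than in NoFC pericytes. Their log2 fold changes were −0.68 ± 0.12 (adjusted p = 4.4e-05) and −0.71 ± 0.14 (adjusted p = 0.00094), and 6 of the 20 were lower unadjusted with none higher, against 1.1% and 8.77% of all genes in either direction. *Hsp90ab1* stood at −0.38 ± 0.11 (adjusted p = 0.052). The chaperones also had lower values against NoFC in other groups, without passing. *Hspa8* was at −0.40 ± 0.11 in FC (adjusted p = 0.50) and −0.42 ± 0.11 in FR mice (adjusted p = 0.17), and in FR mice *Hsp90aa1* was at −0.51 ± 0.13 (adjusted p = 0.17) and *Hsp90ab1* at −0.28 ± 0.10 (adjusted p = 0.48). In NoFR over FC, *Hspa8* at −0.28 ± 0.13 (adjusted p = 0.59) and *Hsp90aa1* at −0.49 ± 0.16 (adjusted p = 0.22) did not pass. Of 7 immediate early genes tested, *Ier3* was lower in NoFR than in FC pericytes (−1.20 ± 0.23, adjusted p = 0.00097), and none passed against NoFC. Unadjusted, 4 of the 7 were lower in NoFR than in NoFC and 0 higher, against 8.77% of all genes in either direction. Their median log2 fold change in that pair was −0.53, against 0.00 over all genes. Against FC, 1 of the 7 was under 0.05 unadjusted, where 0.504% of all genes were called and 7.66% were under 0.05 unadjusted. *Ier3* was at −0.72 ± 0.22 for NoFR over NoFC (adjusted p = 0.10) and 0.90 ± 0.23 for FR over NoFR (adjusted p = 0.068). *Btg2* went the other way in FR over NoFR (−0.54 ± 0.19, adjusted p = 0.49). In that pair 1 of the 7 was higher and 1 lower unadjusted, against 6.36% of all genes in either direction. Their median there was −0.25, against 0.00 over all genes.

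In astrocytes, 0 of 6 members tested passed in any pair by edgeR or DESeq2. *Fkbp5*, *Sgk1*, *Pdk4* and *Errfi1* did not pass the filter on low counts, and *Sgk1* had 0 UMIs in all 11 mice. The shares of all genes called were 0.0295% in FC over NoFC, 0.0885% in NoFR over NoFC, 0.0295% in FR over NoFC, and 0% in NoFR over FC, FR over FC and FR over NoFR. Unadjusted, 1 member was under 0.05 in NoFR over NoFC (3.86% of all genes), 1 in NoFR over FC (2.77%) and 1 in FR over NoFR (3.48%), and 0 in FC over NoFC (2.74%), FR over NoFC (3.75%) and FR over FC (2.63%).

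*Zbtb16* was the member behind 2 of these. Its astrocyte level was 78.2 and 114 CPM in NoFC, 119 and 145 CPM in FC, 0, 48.8, 53.8 and 105 CPM in NoFR, and 97.7, 126 and 207 CPM in FR mice. Of the NoFR mice, 3 of 4 lay below all others, and the highest overlapped. The NoFR levels rested on 21 UMIs over 50 cells. The log2 fold change was −1.08 ± 0.50 for NoFR over FC (adjusted p = 1.00) and 1.28 ± 0.53 for FR over NoFR (adjusted p = 1.00), and for NoFR over NoFC it was −0.75 ± 0.64 (adjusted p = 0.96).

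*Nfkbia* was the member behind the remaining one. It was at 2.65 ± 1.29 for NoFR over NoFC (adjusted p = 0.96), with 1 UMI in each NoFC mouse, where pericytes had −0.26 ± 0.18 (adjusted p = 0.75). *Nr3c2*, *Klf9* and *Tsc22d3* had no unadjusted p under 0.05 in astrocytes for the pairs named in pericytes. *Nr3c2* had −0.06 ± 0.40 for FR over NoFC, and *Nfkbia* had 2.16 ± 1.24. *Klf9* had 0.34 ± 0.45 for NoFR over NoFC, −0.08 ± 0.38 for NoFR over FC and −0.25 ± 0.38 for FR over NoFR. *Tsc22d3* had −0.06 ± 0.48, −0.43 ± 0.39, −0.25 ± 0.43 and −0.62 ± 0.47 for NoFR over NoFC, NoFR over FC, FR over NoFC and FR over FC. *Zbtb16* had 0.53 ± 0.54 and 0.20 ± 0.57 for the last 2 of these pairs. Astrocyte sums held 5 to 159 cells per mouse, and the FC 1 mouse alone gave 47.5% of the strict astrocytes.

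Whether a pair of groups differed by another amount in astrocytes than in pericytes was tested as a class by group interaction over the 11 mice with both classes. None of 7 members passed. *Nfkbia* stood at 2.85 ± 1.08 for NoFR over NoFC (adjusted p = 0.91) and *Klf9* at −0.90 ± 0.46 for FR over NoFR (adjusted p = 1.00). The difference in *Zbtb16* log2 fold change, astrocytes minus pericytes, was 2.22 ± 0.82 for NoFR over NoFC (adjusted p = 0.91) and 2.35 ± 0.73 for NoFR over FC (adjusted p = 0.68). For NoFR over NoFC 2 members were under 0.05 unadjusted, against 4.55% of all genes, with 0.0269% called after adjustment. For NoFR over FC 1 was, against 3.43%, with 0% called, and for FR over NoFR 1 was, against 3.87%, with 0% called.

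Hashtag calls by HTODemux, a clustering method for hashtag counts, kept 1565 astrocytes from all 16 mice. *Zbtb16* in astrocytes was then 94.5 to 157 CPM in NoFC, 106 to 171 CPM in FC, 61.9 to 148 CPM in NoFR and 88.4 to 162 CPM in FR mice, with overlap between all groups. Its log2 fold change for NoFR over FC was −0.04 ± 0.22 with these calls and −0.51 ± 0.29 with calls at 5 UMIs and 2 times the next. The interaction passed for *Zbtb16* with HTODemux calls in NoFR over NoFC, at 2.63 ± 0.40 (adjusted p = 1.6e-07), NoFR over FC, at 3.31 ± 0.41 (adjusted p = 6.5e-12), and FR over NoFR, at −2.20 ± 0.42 (adjusted p = 0.00075). With the looser calls it passed in the same 3 pairs (adjusted p = 1.1e-05, 2.4e-05 and 0.033), and *Tsc22d3* also passed in NoFR over NoFC (1.42 ± 0.33, adjusted p = 0.030). Over all 9808 genes tested with HTODemux calls, 13, 4 and 2 passed in these pairs, in that order. With the looser calls, 10, 4 and 2 of 8843 genes did. Hashtags on astrocytes were weak, and how many cells such calls give to another mouse was not tested.

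**Figure D4:**
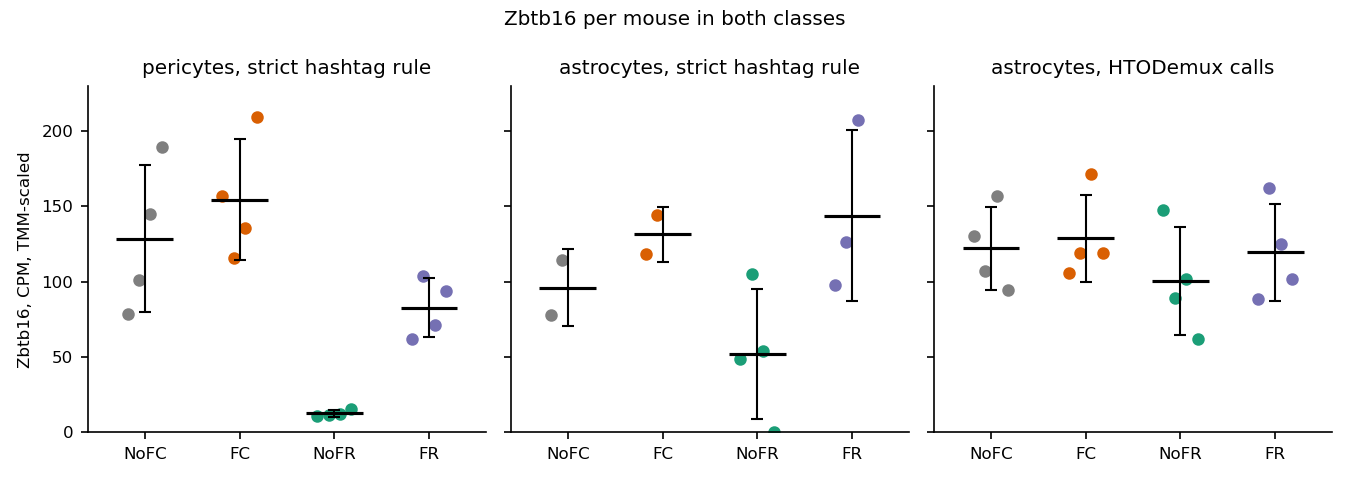
*Zbtb16* level per mouse in TMM-scaled CPM (shared vertical axis from 0), in pericytes and astrocytes assigned by the strict hashtag rule and in astrocytes assigned by HTODemux. Points are mice, lines group means and error bars the SD. The NoFR mice stand apart at 11.2 to 15.6 CPM in pericytes and overlap with other mice in both astrocyte panels.

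The level of a member in astrocytes was set against its level in pericytes over mice. For 8 members with enough UMIs in both classes over 11 mice, no Pearson's r passed a permutation test after Benjamini-Hochberg adjustment. The pericyte values of *Zbtb16* and *Klf9* fall into separate clusters, NoFR and the rest, so no r is given for them. *Zbtb16* had the smallest unadjusted permutation p of the 8 (p = 0.023, adjusted p = 0.18), which rests on the same clusters. With library means subtracted its permutation p was 0.14 (adjusted p = 0.38). With HTODemux calls over 16 mice its permutation p was 0.056, and 0.38 with library means subtracted. *Nfkbia* had r = −0.53 (permutation p = 0.092, adjusted p = 0.37) and rho = −0.66 (permutation p = 0.030), and *Nr3c1* had r = −0.47 (permutation p = 0.14, adjusted p = 0.38) and rho = −0.45 (permutation p = 0.17). Without the 2 mice farthest from the median they were −0.54 and −0.30, and with library means subtracted −0.62 for *Nfkbia* and −0.61 for *Nr3c1* (permutation p = 0.045 and 0.030, both adjusted p = 0.18). With HTODemux calls over 16 mice, r was −0.21 for *Nfkbia* (permutation p = 0.44) and −0.48 for *Nr3c1* (permutation p = 0.063), and rho was −0.20 for both (permutation p = 0.46 for each).

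Likeness of pattern was described over the 16 mice in pericytes after subtracting library means, among genes with a mean of at least 50 CPM. The genes most like *Fkbp5* were *Zswim8* (r = 0.89), *Tbc1d16* (r = 0.87) and *Ost4* (r = 0.82) among 4026 genes. Those most like *Tsc22d3* were *Foxc1* (r = 0.85), *Ifi30* (r = 0.82) and *Rhob* (r = 0.79) among 4025 genes. *Nr3c1* was far down both orders, at r = −0.06 and −0.32, as was *Nr3c2*, at r = −0.26 and −0.20. *Zbtb16* and *Klf9* were 9th and 15th in the order for *Fkbp5* and 14th and 29th in that for *Tsc22d3*. Group means were not subtracted, so the difference of NoFR mice that these members share enters the orders.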

How the data were processed

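The authors deposited unnormalized UMI counts of genes and hashtags in each barcode, which Cell Ranger produced on mm10. The submitters' processing notes name version 3.0 and the matrix headers version 7.0.0. A hashtag table ties hashtags to mice, groups and libraries. Of its hashtag columns, only the first was read. The members, lists and tests were chosen with earlier results of these data known. Barcodes were classed by the gates given above, with no doublet caller. Left out were 538 strict pericytes and 111 strict astrocytes whose hashtag is listed for no mouse in that hashtag column. Counts per mouse and class were summed over cells, filtered by filterByExpr, scaled by TMM and fitted in edgeR 4.0.16 with group and library terms. The scripts were tested on simulated data. Members were named between groups where the unadjusted p was under 0.05 in a class, with the other class beside them, and other listed genes could be named where it was under 0.01. Alternatives were DESeq2 1.42.0, RLE scaling, other filters, hashtag rules (Seurat 5.3.0 HTODemux among them) and gates, and leaving out each mouse. Restricting HTODemux to filtered barcodes was chosen after seeing the data. UMI counts taken alone cover counting error only. Each SE comes from the fit over mice, and each SD is over mice or, in the class comparison, over libraries. Mice are separate animals pooled into 3 libraries, so p-values measure the spread between mice. Depth was 42350059, 31700569 and 33368825 UMIs in libraries 1 to 3, and mice with few cells are the least precise.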

Additional observations from a re-analysis of the deposited data

Results flagged for a closer look

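Among 34 groups of 4 mice checked for a value far from the rest, which chance flags in about 1 of 20, 3 were flagged. *Klf9* in pericytes of the NoFC 4 mouse was at 780 CPM and *Nfkbia* in the same sums at 217 CPM, each the highest of its group. *Tsc22d3* in astrocytes of the NoFR 2 mouse was at 191 CPM, the highest of its group. Without NoFC 4, the *Klf9* log2 fold change of NoFR over NoFC was −0.68 and passed in edgeR's quasi-likelihood test (adjusted p = 0.0076).

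Pericytes whose strict hashtag is listed for no mouse in the hashtag column that was read entered no comparison. Over 12 such hashtags with 538 cells in all, *Zbtb16* had a median of 55.6 CPM and ran from 0 to 173 CPM. *Fkbp5* had a median of 16.7 CPM (0 to 71.6 CPM), *Tsc22d3* of 52.1 CPM (27.3 to 124 CPM) and *Klf9* of 394 CPM (209 to 498 CPM).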

How the results depend on the processing

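In pericytes, *Zbtb16* and *Klf9* kept their calls and direction in all comparisons with NoFR mice under every alternative run. Of the members' log2 fold changes under alternatives, 476 kept their direction and side of the threshold, 13 lost the threshold, 9 gained it and 1 reversed. The reversed value was *Nfkbia* in astrocytes for NoFR over NoFC, at −0.093 with looser hashtag calls. The *Nr3c1* class log2 ratio also reversed, to 0.23 under TMM. The number of members called in pericytes for NoFR over NoFC ran from 2 to 4 when 1 mouse was left out, with 2 without NoFC 4 or without NoFR 3. No paired analysis was possible because each mouse belonged to 1 group and the sources give its number no meaning across groups. The numbers of all genes called moved more. In pericytes, NoFR over NoFC went from 72 to 39 with DESeq2 and 37 without cells holding endothelial or over 1 smooth muscle UMI, and ran from 43 to 84 when 1 mouse was left out. NoFR over FC went from 33 to 17 with DESeq2, 53 with looser hashtag calls, 65 without the library term and 11 without those cells. FR over NoFR went from 9 to 4 with DESeq2 or HTODemux, 19 without a count filter and 2 without those cells, and from 4 to 16 leaving out 1 mouse. FR over NoFC went from 3 to 0 with DESeq2, 1 with looser calls or without those cells and 10 without a filter, and from 0 to 6 leaving out 1 mouse. FC over NoFC and FR over FC went from 0 to 2 and 1 without a filter, and ran from 0 to 1 and 0 to 3 leaving out 1 mouse. In astrocytes, FC over NoFC went from 1 to 0 with looser calls or filtered barcodes, 2 with at least 10 cells per mouse and 3 without a filter, and from 1 to 2 leaving out 1 mouse. FR over NoFC went from 1 to 0 with DESeq2, looser calls or filtered barcodes and 3 without a filter, and from 1 to 4 leaving out 1 mouse. NoFR over NoFC went from 3 to 1 with DESeq2 and 0 with HTODemux, looser calls or filtered barcodes, and from 1 to 4 leaving out 1 mouse. FR over FC, FR over NoFR and NoFR over FC, at 0, ran from 0 to 5, 0 to 3 and 0 to 2 leaving out 1 mouse. The causes were not tested. Weak hashtags on astrocytes and low UMI counts of *Fkbp5* and, in NoFR, *Zbtb16* limit the precision.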
